A study of Mus musculus with 12 samples.

Results

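The constitutive proteasome genes were taken as every gene whose symbol begins with Psma, Psmb, Psmc or Psmd and a digit, without the 3 immunoproteasome genes Psmb8, Psmb9 and Psmb10. This rule found 37 of the 21834 protein-coding genes in the count table, and 35 of them were among the 11626 genes that passed a filter of 0.5 CPM (counts scaled to a common library total) in at least 3 libraries. The 2 genes that did not pass were Psma8, the alpha subunit of testis, with 0 counts in every library, and Psmb11, the catalytic subunit of the thymic cortex, with 0 to 2 counts per library. Of the 35 genes tested, 34 encode subunits of the 26S proteasome or chaperones of its assembly. The other one, Psmc3ip, was taken by its symbol only and encodes a protein of meiotic recombination.

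The 26S proteasome degrades proteins that carry chains of ubiquitin. Its 20S core is a stack of rings in which the alpha subunits (Psma genes) form the gate and the beta subunits (Psmb genes) line the chamber, with the proteolytic sites on Psmb5, Psmb6 and Psmb7. The 19S regulatory particle caps the core: its base holds the ring of ATPases (Psmc genes) that unfolds the substrate, and its lid (most Psmd genes) holds the enzyme that removes ubiquitin. In microglia, the resident immune cells of the brain, proteasomes also degrade the inhibitor that holds NF-κB in the cytoplasm.

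RNA was sequenced from BV2 cells, an immortalized mouse microglial line, after oxygen-glucose deprivation and reoxygenation (OGD/R), a culture model of ischemia and reperfusion. Lentivirus had been used to make stable puromycin-selected lines, one with a control shRNA (shCtrl) and one with an shRNA to Anxa2 (shAnxa2), with 1 shRNA sequence each, so that an effect of the knockdown and a difference between lines cannot be told apart. The 4 groups, shCtrl-CTRL, shCtrl-OGDR, shAnxa2-CTRL and shAnxa2-OGDR, had 3 libraries each, which the study calls biological replicates. CTRL libraries were not treated, and OGDR libraries had 4 h of deprivation and 12 h of reoxygenation by the labels. The study's methods give a longer reoxygenation, and which holds for these libraries is not known. Groups were taken from the sample names. A second label gives the cell type as Anxa2 knockdown for all OGDR libraries and as WT for all CTRL libraries, which goes against the names.

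The totals ranged from 19521877 to 27288843 counts per library. Anxa2, the targeted gene, had 164.5 to 176.6 CPM in the shCtrl-CTRL libraries and 250.8 to 294.5 in shCtrl-OGDR, against 35.0 to 44.4 in shAnxa2-CTRL and 18.2 to 20.6 in shAnxa2-OGDR, so it was low in all 6 libraries named shAnxa2. All 12 microglia and macrophage markers were detected, with a summed level of 1736 to 2174 CPM, lowest in shAnxa2-CTRL. Csf1r, Cd68, Ptprc and Spi1 had group means of 274.8 to 584.1 CPM. P2ry12, Aif1, Cx3cr1 and Tmem119 were low, with group means of 1.73 to 10.3 CPM. Single markers did not all follow the sum, as Cx3cr1 was highest in shAnxa2-CTRL and Tmem119 lowest in shCtrl-OGDR. The 4 markers each of astrocytes, neurons and fibroblasts summed to under 1 CPM in every library, with Aqp4, Syt1, Snap25 and Dcn at 0 throughout, and the 4 oligodendrocyte markers to 3.97 to 6.3 CPM with Mog at 0. By the 35 proteasome genes, the shAnxa2-CTRL libraries lay nearer to shCtrl-OGDR (root mean square difference 0.256 on the log2 scale) than to shCtrl-CTRL (0.321), and shAnxa2-OGDR lay nearer to shCtrl-CTRL (0.275) than to shCtrl-OGDR (0.430). Within the lines, CTRL and OGDR libraries differed by 0.342 in shCtrl and by 0.266 in shAnxa2. The shAnxa2 groups thus lay about as near to each other as to the shCtrl group nearest to each. Libraries of 1 group differed by 0.0735 to 0.124 on average. This arrangement of the groups goes with every comparison that follows, and its cause was not tested. Anxa2 itself was higher in the OGDR than in the CTRL libraries of shCtrl and lower in those of shAnxa2. Whether treatment labels were exchanged in one of the lines was not tested either. Such an exchange would turn the sign of each OGD/R change in that line and would change which libraries the interaction and both knockdown comparisons set against each other.

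**Figure D1:**
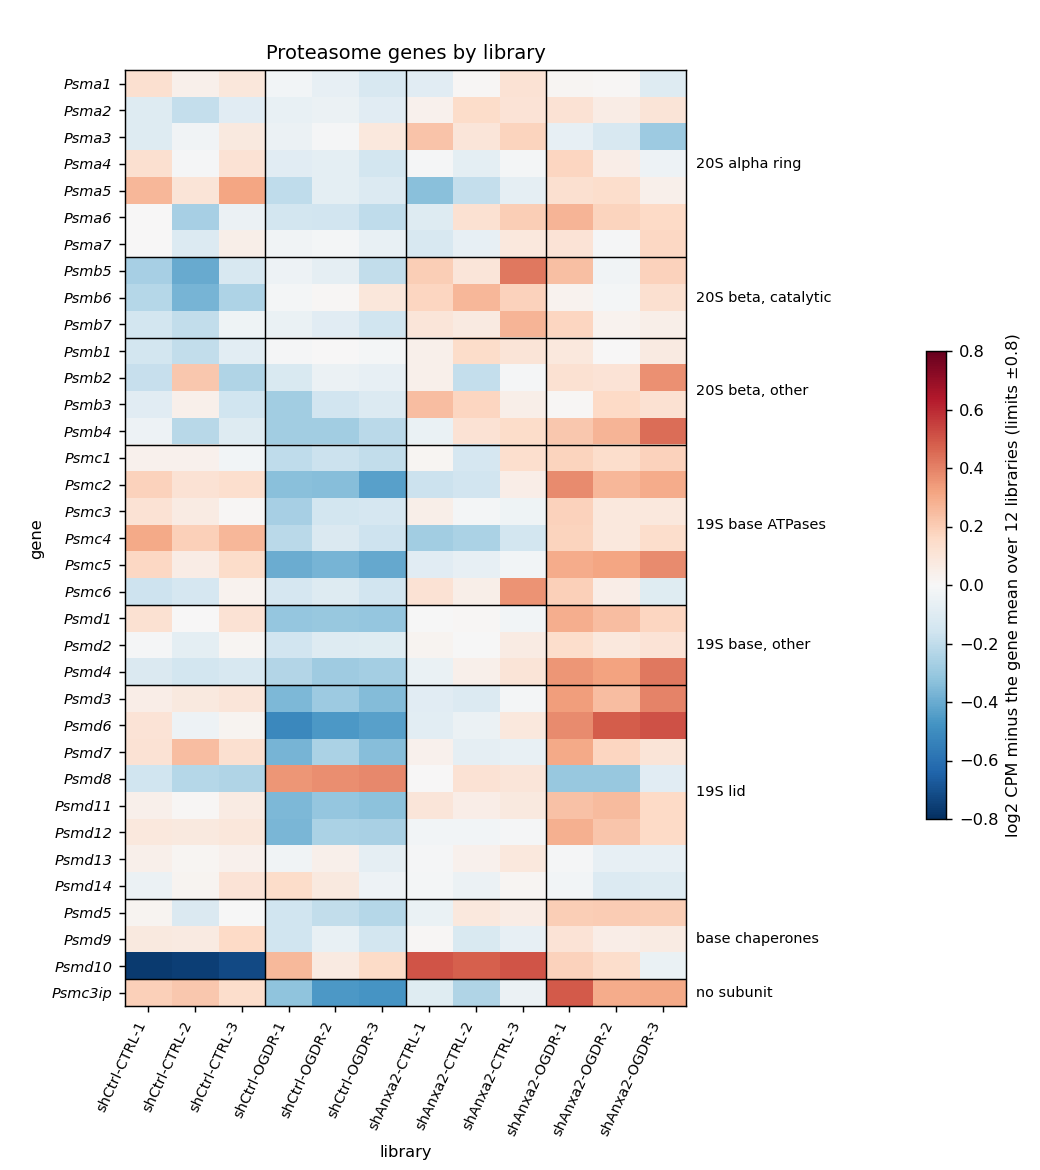
Log2 CPM of each of the 35 tested genes (rows, by role) in each of the 12 libraries (columns, by group), less the mean of that gene over the libraries. Most genes of the 19S base and lid are low in shCtrl-OGDR and high in shAnxa2-OGDR, and Psmd10 and Psmd8 run the other way between the shCtrl groups.

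Per kilobase of transcript, the levels differed between subunits that sit in the complex in equal number. Transcript lengths were those of the GENCODE vM21 principal transcript of each gene. In shCtrl-CTRL, Psmb6, the caspase-like subunit, was highest at 518.9 ± 28.0 CPM per kilobase (SD, n = 3), and Psma7 of the alpha ring, at 507.5 ± 27.8, did not differ from it beyond the spread. Psmb5, the chymotrypsin-like subunit, followed at 268 ± 25.8 and Psmb3 at 226 ± 16.2. Psmb7, the trypsin-like subunit, stood at place 15 with 146 ± 8.62. The median was 150.1 CPM per kilobase over the 14 genes of the core and 116 over the 17 genes of the 19S particle. The lowest of the core was Psmb2, at 42.5 ± 7.64, and the 3 chaperones that assemble the base, Psmd10, Psmd9 and Psmd5, stood below it at 29.0 ± 0.436, 24.5 ± 0.828 and 19.8 ± 0.987. Psmb6, Psma7 and Psmb5 kept places 1 to 3 in every group. The shortest principal transcript was used, and among the genes ranked only Psmd8 and Psmd11 had a longer one. Using the longest could therefore not change places 1 to 3, while Psmd11 moved from place 6 to place 16 with it.

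The first comparison asked how the genes change with OGD/R in the control line. In shCtrl cells, most of the 19S particle fell after OGD/R, while most of the 20S core was not called. In edgeR (quasi-likelihood test, p adjusted by Benjamini-Hochberg over all genes tested), 4 of the 35 proteasome genes rose and 18 fell, where 32.4% of all genes tested rose and 31.0% fell. In either direction 62.9% of the proteasome genes were called, against 63.4% of all genes, so their share was near the background and the counts by direction were not. Of the 17 genes of the 19S particle, 1 rose and 12 fell, with a median log2 fold change of −0.38. Of the 14 genes of the core, 2 rose and 3 fell, with a median of −0.021. These small core counts moved with the settings: 1 rose and 4 fell without shCtrl-CTRL replicate 2, 3 rose and 2 fell without shCtrl-OGDR replicate 3, and 3 rose and 4 fell without the filter, with only the shCtrl groups in the fit or with the replicate number as a block, while the median stayed between −0.034 and −0.0028 when 1 library was left out. The median over all 35 was −0.14 and that over all genes tested 0.0045. Leaving out 1 library ended the calls of Psma1 (shCtrl-OGDR replicate 3, edgeR adjusted p = 0.0624 without it), Psmb1 (shCtrl-CTRL replicate 2, 0.0582) and Psmd4 (shCtrl-CTRL replicate 1 or 3 or shCtrl-OGDR replicate 2 or 3, 0.0544 to 0.0775).

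Among the base ATPases, which unfold substrates, 5 of 6 fell. Psmc5 was at 154, 144 and 152 CPM in shCtrl-CTRL and 105, 107 and 104 in shCtrl-OGDR, a log2 fold change of −0.52 ± 0.046 (SE, edgeR adjusted p = 6.07e-10). Psmc2 was at 169, 161 and 163 CPM and then at 118, 117 and 110.0, −0.51 ± 0.055 (SE, edgeR adjusted p = 1.77e-08). In both genes, all 3 OGD/R libraries lay below all 3 untreated ones. Psmc4, Psmc3 and Psmc1 fell by 0.42, 0.25 and 0.21 on the log2 scale, and Psmc6 had a log2 fold change of −0.044 ± 0.071 and was not called. Of the other base genes, the scaffold Psmd1 fell by 0.39 and the ubiquitin receptor Psmd4 by 0.13, and the scaffold Psmd2, at −0.10 ± 0.043, was not called (adjusted p = 0.0595, edgeR).

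In the lid, 5 of 8 genes fell: Psmd6 by 0.50, Psmd7 by 0.48, Psmd3 by 0.41, Psmd12 by 0.38 and Psmd11 by 0.38 on the log2 scale. Psmd8, a lid subunit that is placed last in lid assembly, rose. It was at 242, 232 and 229 CPM in shCtrl-CTRL and 346, 350.4 and 354 in shCtrl-OGDR, a log2 fold change of 0.58 ± 0.054 (SE, edgeR adjusted p = 1.69e-09). Psmd14, the deubiquitinase, and Psmd13 had log2 fold changes of 0.034 ± 0.052 and −0.049 ± 0.045 and were not called.

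The largest change of any proteasome gene was that of Psmd10 (gankyrin), a chaperone of the base that is also known to bind Rb and Mdm2. Psmd10 was at 41.0, 41.4 and 42.2 CPM in shCtrl-CTRL and 83.5, 73.1 and 77.3 in shCtrl-OGDR, a log2 fold change of 0.91 ± 0.061 (SE, edgeR adjusted p = 5.4e-12). The other chaperones of the base fell, Psmd9 by 0.22 and Psmd5 by 0.16 on the log2 scale. Counts of Psmd10 per count of Psmd5 went from 0.455 to 0.505 in the untreated libraries to 0.944 to 1.05 after OGD/R.

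In the core, Psmb6 was at 430.1, 389 and 424 CPM in shCtrl-CTRL and 499, 508 and 535 in shCtrl-OGDR, a log2 fold change of 0.31 ± 0.051 (SE, edgeR adjusted p = 1.11e-05). Psmb5 was at 241, 218 and 265 CPM and then at 281, 275 and 253, which overlap, with a log2 fold change of 0.16 ± 0.077 (SE, edgeR adjusted p = 0.0735). Psmb7 was at 166, 160.4 and 179.8 CPM and then at 178, 172 and 165, with a log2 fold change of 0.024 ± 0.058 (SE, edgeR adjusted p = 0.734). Of the catalytic subunits, then, Psmb6 was called and Psmb5 and Psmb7 were not. Psmb1 rose by 0.14 on the log2 scale, and of the alpha ring Psma5, Psma4 and Psma1 fell by 0.36, 0.19 and 0.16. Psmc3ip fell the most of all genes taken by the rule, from 23.6, 24.1 and 22.8 CPM to 16.58, 15.04 and 14.96, −0.60 ± 0.081 (SE, edgeR adjusted p = 7.3e-07).

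In shAnxa2 cells, the same comparison gave the opposite sign for most genes of the 19S particle. After OGD/R, 18 of the 35 genes rose and 4 fell, where 28.2% of all genes tested rose and 26.8% fell (62.9% against 55.0% in either direction). Of the 19S genes 12 rose and 1 fell, with a median log2 fold change of 0.23, and of the core 3 rose and 2 fell, with a median of −0.022. Without shAnxa2-CTRL replicate 3, 5 core genes rose and 2 fell with a median of 0.0087, and without shAnxa2-CTRL replicate 2, 2 rose and 1 fell with a median of 0.0012, so the sign of the core median rests on single libraries. Without shAnxa2-OGDR replicate 2, 4 core genes rose and 1 fell. Of the 19S genes 2 fell in place of 1 without shAnxa2-CTRL replicate 2 or shAnxa2-OGDR replicate 1. The median over all 35 genes was 0.13 and that over all genes tested 0.0044. Leaving out shAnxa2-CTRL replicate 2 ended the calls of Psmb2, Psmb6, Psmc1, Psmc3 and Psmd9 (edgeR adjusted p of 0.0639 to 0.17 without it). The call of Psmd5 was lost without shAnxa2-CTRL replicate 1 (0.0546) and that of Psmd11 without shAnxa2-OGDR replicate 2 (0.0621), and Psmb2, Psmb6, Psmc3 and Psmd9 lost theirs without other libraries too (0.0508 to 0.189).

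Psmd6 was at 149, 153 and 167 CPM in shAnxa2-CTRL and 206, 221 and 225 in shAnxa2-OGDR, a log2 fold change of 0.47 ± 0.053 (SE, edgeR adjusted p = 7.22e-08). Psmd3, another lid subunit, was at 244, 241 and 257 CPM and then at 328, 308 and 342, 0.40 ± 0.048 (SE, edgeR adjusted p = 2.35e-07). In both, every OGD/R library was above every untreated one. Of the base, Psmc2, Psmc5, Psmc4, Psmd4 and Psmd1 rose by 0.40, 0.39, 0.36, 0.33 and 0.24 on the log2 scale. Psmc3 and Psmd9, with log2 fold changes of 0.12 and 0.13, had edgeR adjusted p of 0.0472 and 0.0426, and their calls were lost under most alternatives. Psmc3ip rose from 19.4, 17.5 and 20.1 CPM to 29.1, 25.5 and 25.6, 0.49 ± 0.08 (SE, edgeR adjusted p = 1.6e-05).

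The genes that fell in shAnxa2 cells were Psmd10, Psma3, Psmd8 and Psmb6. Psmd10 was at 98.9, 96.9 and 98.8 CPM in shAnxa2-CTRL and 79.1, 76.9 and 67.1 in shAnxa2-OGDR, a log2 fold change of −0.40 ± 0.059 (SE, edgeR adjusted p = 4.09e-06). Psmd8 was at 271, 293 and 289.5 CPM and then at 219, 219 and 254, −0.30 ± 0.055 (SE, edgeR adjusted p = 5.43e-05). In these genes the groups did not overlap. Psmb6 was at 567, 607 and 572 CPM and then at 514, 499 and 549.5, a log2 fold change of −0.16 ± 0.051 (SE, edgeR adjusted p = 0.0108), which was −0.13 without shAnxa2-CTRL replicate 2 (edgeR adjusted p = 0.0639) and −0.14 without shAnxa2-OGDR replicate 2 (0.0515). Psma3 of the alpha ring was at 324, 297 and 314 CPM and then at 266, 254 and 227, a log2 fold change of −0.33 ± 0.059 (SE, edgeR adjusted p = 5.33e-05). Psmb5 was at 331, 309 and 387 CPM and then at 342, 283 and 328, with a log2 fold change of −0.11 ± 0.077, and Psmb7 was at 197, 194 and 222 and then at 207, 188 and 190.3, with −0.068 ± 0.058. Neither was called.

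**Figure D2:**
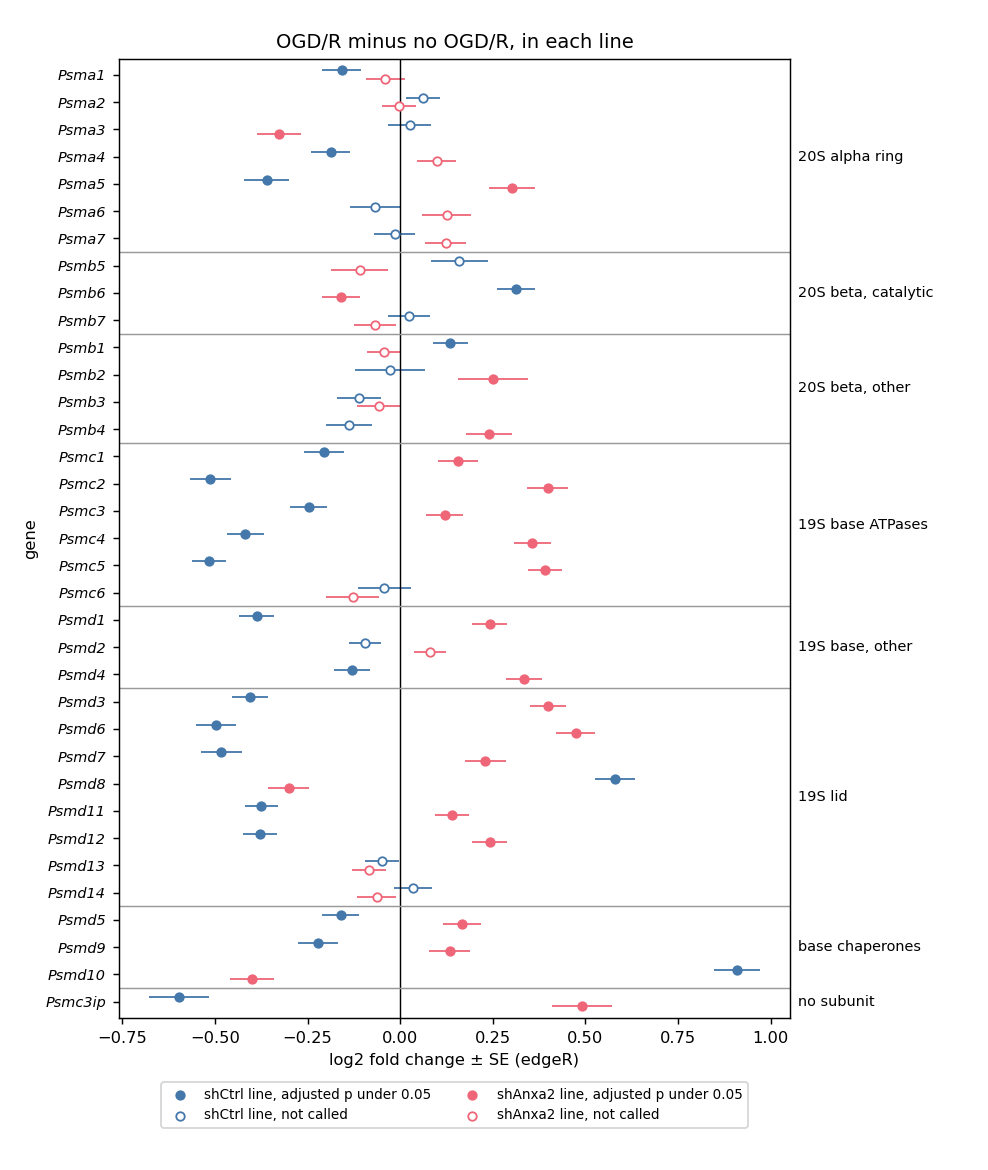
Log2 fold change after OGD/R (x axis, with its standard error) of each of the 35 genes by role, in the shCtrl line (blue) and in the shAnxa2 line (red), from 3 libraries per group. Filled points passed the test, and all 19 genes with filled points in both lines lie on opposite sides of 0.

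The difference between the lines was then tested as the interaction, the OGD/R change in shAnxa2 less that in shCtrl. It was positive and called for 19 of the 35 genes and negative and called for 6, where 34.9% and 35.1% of all genes tested were (71.4% against 70.0% in either direction). Of the 19S genes 13 were positive and 1, Psmd8, was negative, with a median of 0.51 on the log2 scale. Of the core 3 were positive (Psma5, Psmb4 and Psma4) and 4 were negative (Psmb6, Psma3, Psmb5 and Psmb1). Without shAnxa2-CTRL replicate 3 the core had 6 positive and 3 negative, so the balance within the core rests on that library. The median over all 35 genes was 0.29, against −0.0061 over all genes tested. Leaving out 1 library ended the calls of Psmb1 (shAnxa2-CTRL replicate 2, edgeR adjusted p = 0.0548 without it) and Psmd2 (shCtrl-CTRL replicate 3 or shCtrl-OGDR replicate 1, 0.0646 and 0.0536). The call of Psmb5 was lost with DESeq2 and without any one of 6 libraries (shCtrl-CTRL or shCtrl-OGDR replicate 1 or 2, shAnxa2-CTRL replicate 3 or shAnxa2-OGDR replicate 2; 0.0516 to 0.132). The difference was 0.97 ± 0.076 for Psmd6, 0.91 ± 0.078 for Psmc2 and 1.09 ± 0.11 for Psmc3ip, the 3 highest. It was −1.31 ± 0.085 for Psmd10, −0.88 ± 0.077 for Psmd8 and −0.47 ± 0.073 for Psmb6, the 3 lowest.

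The changes called in both lines had opposite signs for 19 of 19 proteasome genes. Over all genes tested that was so for 5165 of 5240, or 98.57%, so the opposite sign was not particular to the proteasome. What this share means depends on the treatment labels, as said above. In neither line were 10 of the 35 proteasome genes called, against 3101 of the 11626 genes tested, which is a like share. Among these 10, the 8 genes Psma2, Psma6, Psma7, Psmb3, Psmb7, Psmc6, Psmd13 and Psmd14 had no called difference between the lines either. Psmd13 had 120.4 to 134.7 CPM across the 12 libraries, and its difference between the lines was −0.035 ± 0.064.

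**Figure D3:**
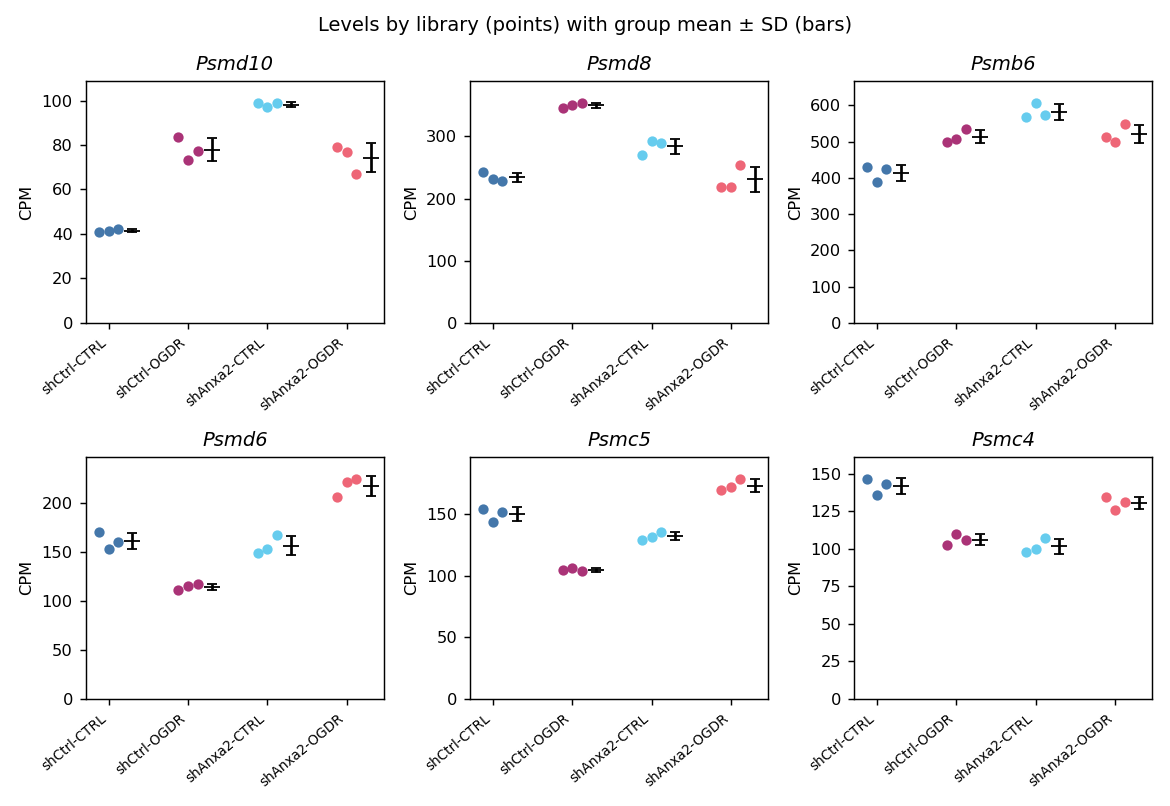
CPM of Psmd10, Psmd8, Psmb6, Psmd6, Psmc5 and Psmc4 in each library (points, by group), with the group mean and SD (bars, n = 3). Psmd10 is lowest in the 3 shCtrl-CTRL libraries (41.0 to 42.2 CPM), while Psmd6 and Psmc5 are lowest in shCtrl-OGDR and highest in shAnxa2-OGDR.

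Without OGD/R, the knockdown line had more RNA of most genes of the 20S core, and the 19S particle was mixed. Of the 35 genes, 13 were higher in shAnxa2-CTRL than in shCtrl-CTRL and 8 were lower, where 29.5% of all genes tested were higher and 29.7% lower. In either direction 60.0% of the proteasome genes were called and 59.2% of all genes, which is near the background. Of the core 9 of 14 were higher and 1, Psma5, was lower, with a median log2 fold change of 0.19 (2 were lower without shCtrl-CTRL replicate 2 or shAnxa2-OGDR replicate 1 or 3). Of the 19S particle 3 of 17 were higher (Psmd8, Psmc6 and Psmd4) and 5 were lower (Psmc4, Psmc2, Psmd7, Psmc5 and Psmd3), with a median of −0.043. The median over all 35 was 0.0027 and that over all genes tested 0.00069. Leaving out 1 library ended the calls of Psma3 (shCtrl-CTRL replicate 1, edgeR adjusted p = 0.0727 without it), Psmb4 (shCtrl-CTRL replicate 2, 0.0562) and Psmd3 (shAnxa2-CTRL replicate 2, 0.0504). Psma6 lost its call without shCtrl-CTRL replicate 2 or shAnxa2-CTRL replicate 2 or 3 (0.0817 to 0.179), and Psmd9 without shCtrl-CTRL replicate 3 or shAnxa2-CTRL replicate 2 (0.0806 and 0.0679).

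All 3 catalytic subunits were higher in shAnxa2-CTRL than in shCtrl-CTRL, with no overlap between the libraries of these groups given above. The log2 fold change was 0.51 ± 0.077 (SE, edgeR adjusted p = 4.69e-06) for Psmb5. It was 0.49 ± 0.051 (SE, edgeR adjusted p = 1.63e-08) for Psmb6. It was 0.28 ± 0.058 (SE, edgeR adjusted p = 0.000237) for Psmb7. Psmd10 differed the most, by 1.24 ± 0.061 (SE, edgeR adjusted p = 2.79e-14), with every shAnxa2-CTRL library above every shCtrl-CTRL library. At the other end, Psmc4 was at 147, 136 and 143 CPM in shCtrl-CTRL and 98.2, 99.8 and 108 in shAnxa2-CTRL, −0.48 ± 0.049 (SE, edgeR adjusted p = 1.41e-08). Psma5 of the alpha ring was at 146, 130.5 and 151 CPM and 96.2, 106 and 116, −0.42 ± 0.061 (SE, edgeR adjusted p = 2.33e-06).

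After OGD/R, most proteasome genes were higher in the knockdown line. Of the 35 genes 26 were higher in shAnxa2-OGDR than in shCtrl-OGDR and 3 were lower, where 33.8% of all genes tested were higher and 34.2% lower (82.9% against 67.9% in either direction). All 9 genes of the base were higher, as were 5 of the 8 of the lid and 9 of the 14 of the core. The median log2 fold change was 0.52 over the 19S particle, 0.18 over the core and 0.28 over all 35 genes, against −0.0033 over all genes tested. Leaving out shAnxa2-OGDR replicate 1 ended the calls of Psma4, Psmb5, Psmb7 and Psmc6 (edgeR adjusted p of 0.0514 to 0.193 without it), leaving out shAnxa2-OGDR replicate 3 those of Psma3 (0.084) and Psmb2 (0.102), and leaving out shCtrl-OGDR replicate 3 those of Psma3, Psmb5 and Psmc6 (0.0534 to 0.082). Psmc6 and Psmd14 also lost theirs without shCtrl-OGDR replicate 1 (0.073 and 0.0955) or shAnxa2-OGDR replicate 2 (0.0647 and 0.0548), and Psmd14 without shCtrl-OGDR replicate 2 (0.0552).

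Psmd6 was at 110.5, 115 and 117 CPM in shCtrl-OGDR, below all 9 other libraries, and at the values above in shAnxa2-OGDR, above all 9 others, a log2 fold change of 0.93 ± 0.054 (SE, edgeR adjusted p = 2.16e-13). Psmc5 went from the 105, 107 and 104 CPM given above to 169.5, 172 and 179, 0.72 ± 0.046 (SE, edgeR adjusted p = 9.98e-13). Psmc2 was higher by 0.68, Psmd3 by 0.66 and Psmd4 by 0.63 on the log2 scale. Of the core, Psmb4 was the highest at 0.57, and Psmb5 and Psmb7 were higher by 0.24 ± 0.077 (SE, edgeR adjusted p = 0.00898) and 0.18 ± 0.058 (SE, edgeR adjusted p = 0.0071). Psmb6 had a log2 fold change of 0.019 ± 0.051 (SE, edgeR adjusted p = 0.754), and its libraries overlapped.

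The 3 genes that were lower were Psmd8, Psma3 and Psmd14. Psmd8 had a log2 fold change of −0.60, with all shCtrl-OGDR libraries at 346.1 CPM or above and all shAnxa2-OGDR libraries at 253.9 or below. Psma3 was at 268, 276 and 294 CPM in shCtrl-OGDR, a log2 fold change of −0.17 ± 0.059 (SE, edgeR adjusted p = 0.0146). Psmd14 was at 205, 196 and 181 CPM in shCtrl-OGDR and 183, 173 and 173 in shAnxa2-OGDR, which overlap, −0.14 ± 0.052 (SE, edgeR adjusted p = 0.0216). Psmd10 had a log2 fold change of −0.068 ± 0.06 (SE, edgeR adjusted p = 0.317) and was not called.

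**Figure D4:**
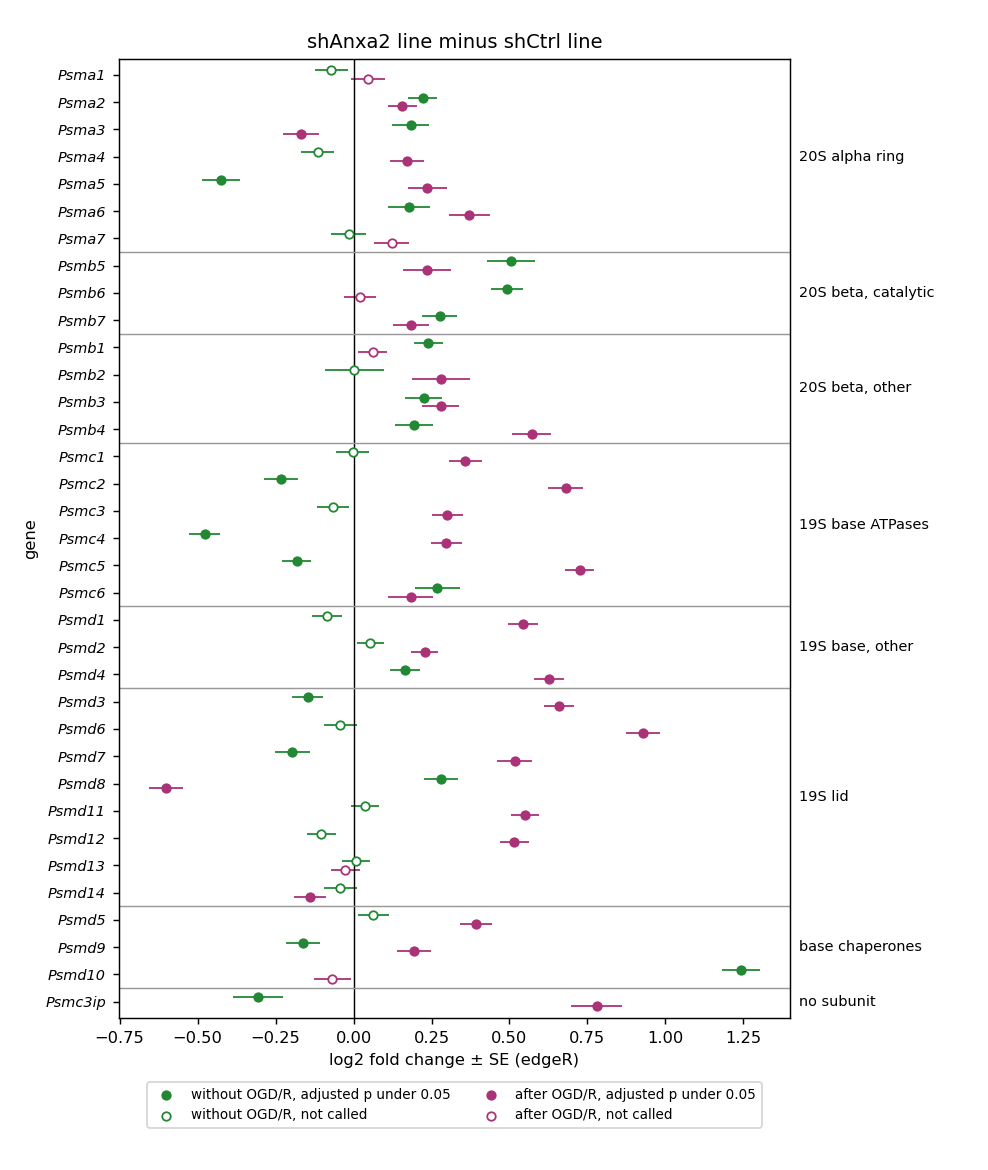
Log2 fold change of shAnxa2 over shCtrl (x axis, with its standard error) of each of the 35 genes by role, without OGD/R (green) and after OGD/R (purple), from 3 libraries per group. Filled points passed the test. After OGD/R, 26 genes lie to the right of 0 with filled points, among them all 9 of the base.

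Most changes of proteasome genes were small. With limits of fold change of 1.2 and 0.8 and an unadjusted p under 0.05 in edgeR, 3 proteasome genes rose and 11 fell with OGD/R in shCtrl, where 25.8% and 19.9% of all genes tested did. In shAnxa2, 8 rose and 2 fell with OGD/R, where 19.6% and 17.5% did. In the knockdown line 6 genes were higher and 2 lower without OGD/R, where 23.3% and 17.1% of all genes tested were, and 18 were higher and 1 lower after OGD/R, where 26.9% and 24.8% were. The interaction was past these limits for 19 genes upward and 4 downward, where 32.7% and 31.0% of all genes tested were. With a fold of 1.5 in either direction, 2 proteasome genes were left for OGD/R in shCtrl (20.6% of all genes tested), 0 in shAnxa2 (12.6%), 1 for the knockdown without OGD/R (16.1%), 7 after OGD/R (26.6%) and 12 for the interaction (42.2%). The shares past a fold of 1.5 were thus below the background in every comparison.

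Summed over the 35 genes, 0.716 ± 0.0165% of all counts in shCtrl-CTRL came from proteasome genes (SD, n = 3 in each group), 0.674 ± 0.00622% in shCtrl-OGDR, 0.762 ± 0.0196% in shAnxa2-CTRL and 0.789 ± 0.0103% in shAnxa2-OGDR. The 17 genes of the 19S particle took 0.396 ± 0.00511%, 0.348 ± 0.00462%, 0.394 ± 0.00889% and 0.432 ± 0.00497% in this order, and the 14 genes of the core 0.298 ± 0.0114%, 0.303 ± 0.0019%, 0.340 ± 0.0113% and 0.331 ± 0.00605%. The ratio of core to 19S counts was 0.730 to 0.771 in the shCtrl-CTRL libraries and 0.864 to 0.877 in shCtrl-OGDR. In the shAnxa2 line it was 0.846 to 0.876 without and 0.754 to 0.776 after OGD/R. The 2 ranges did not overlap in either line, and the ratio moved up with OGD/R in shCtrl and down in shAnxa2. In bulk RNA, fewer cells with a transcript and less of it per cell cannot be told apart.

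**Figure D5:**
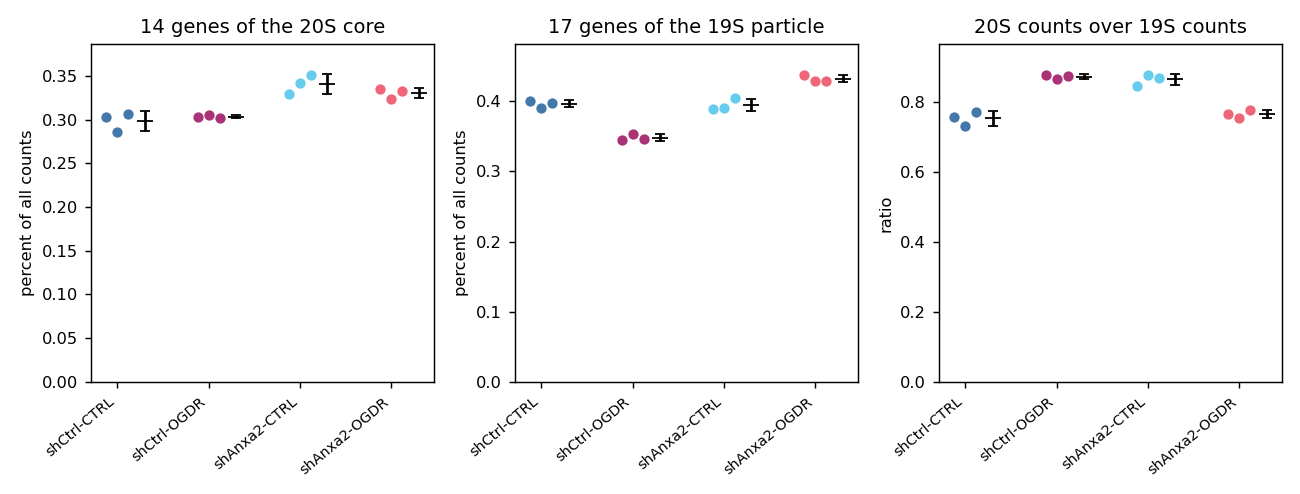
Share of all counts taken by the 14 genes of the 20S core (left) and the 17 genes of the 19S particle (middle), and the ratio of their counts (right), in each library (points, by group), with the group mean and SD (bars, n = 3). The ratio is 0.864 to 0.877 in shCtrl-OGDR and 0.754 to 0.776 in shAnxa2-OGDR.

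The transcripts of the core were shorter than those of the 19S particle, with a median of 1162.5 against 1626 bases. Over all genes tested, the median log2 fold change with OGD/R in shCtrl was 0.08 for the 916 genes with transcripts under 1000 bases and −0.013 for the 5181 of 3000 bases or more, and that of the knockdown without OGD/R was 0.13 and −0.056. With OGD/R in shAnxa2 these medians were −0.0057 and 0.0086, and for the knockdown after OGD/R they were 0.0615 and −0.0499. For the interaction they were −0.102 and 0.0146. The core and 19S medians fall among transcripts of 1000 to 1500 and of 1500 to 2000 bases. There the medians over all genes tested were 0.0643 and 0.0228 with OGD/R in shCtrl and −0.0 and −0.0066 in shAnxa2. They were 0.1003 and 0.0435 for the knockdown without OGD/R, 0.0503 and 0.0456 after OGD/R, and −0.0497 and −0.034 for the interaction. The part of transcript length in the difference between core and 19S particle was not tested.

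Bases upstream of the start are shown for the genes at the ends of the difference between the lines, Psmd10 and Psmd8 at the low end and Psmd6 and Psmc5 at the high end among subunits and chaperones with a single RefSeq start, and for the catalytic Psmb5 and Psmb6. They are the 150 bases before the RefSeq start (GRCm38.p6, while the count table has mm39 coordinates), 5′ to 3′ on the strand of the gene. Capitals mark TGACNNNGC, the core of the antioxidant response element that Nfe2l1 and Nfe2l2 bind, and CCAAT, the motif of NF-Y, each searched on both strands (reverse GCNNNGTCA and ATTGG, with no overlap between the motifs shown).
Psmd10, chrX:140956712-140956861 (minus strand): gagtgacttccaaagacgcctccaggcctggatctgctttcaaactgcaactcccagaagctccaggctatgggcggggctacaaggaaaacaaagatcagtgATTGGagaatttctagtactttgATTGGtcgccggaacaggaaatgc
Psmd8, chr7:29180674-29180823 (minus strand): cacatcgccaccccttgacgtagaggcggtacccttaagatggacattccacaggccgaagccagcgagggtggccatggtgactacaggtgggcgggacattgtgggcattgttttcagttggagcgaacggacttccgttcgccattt
Psmd6, chr14:14120946-14121095 (minus strand): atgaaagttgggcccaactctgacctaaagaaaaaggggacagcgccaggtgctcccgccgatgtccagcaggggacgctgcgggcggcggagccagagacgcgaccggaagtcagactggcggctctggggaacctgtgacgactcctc
Psmc5, chr11:106256035-106256184 (plus strand): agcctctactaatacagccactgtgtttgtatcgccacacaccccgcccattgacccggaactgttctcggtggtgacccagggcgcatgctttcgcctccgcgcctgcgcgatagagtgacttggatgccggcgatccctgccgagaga
Psmb5, chr14:54617996-54618145 (minus strand): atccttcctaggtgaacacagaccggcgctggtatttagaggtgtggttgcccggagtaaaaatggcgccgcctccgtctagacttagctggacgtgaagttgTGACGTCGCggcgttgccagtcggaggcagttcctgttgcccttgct
Psmb6, chr11:70525207-70525356 (plus strand): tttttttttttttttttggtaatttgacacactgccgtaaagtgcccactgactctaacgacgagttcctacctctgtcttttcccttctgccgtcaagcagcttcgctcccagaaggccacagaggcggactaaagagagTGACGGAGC
TGACNNNGC began 47 bases before the start of Psmb5 and 9 bases before that of Psmb6, and ATTGG began 47 and again 24 bases before that of Psmd10. No capitals stand in Psmd8, Psmd6 or Psmc5. Psmc3ip and Psmc2, whose differences were above that of Psmc5, are not shown, since the former encodes no subunit and the latter has more than 1 start, and both hold CCAAT, beginning 36 bases before the start of Psmc3ip and 28 bases before a start of Psmc2. RefSeq promoters were matched by symbol for 29 of the 35 tested genes. In this window 3 of the 29 held TGACNNNGC, namely Psmb5, Psmb6 and Psmd9 (10.3%, against 6.80% of 32851 promoters), and 9 held CCAAT (31.0%, against 24.5%). Psmc2 and Psma6 have more than 1 promoter in the table and counted once each, as holding a motif if any of their promoters did. The background counts every promoter, of 27025 genes, so the shares compared are not in the same unit.

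The 3 immunoproteasome genes, which replace the catalytic subunits in cells exposed to interferon, were measured beside the subunits they replace. Psmb8, the counterpart of Psmb5, had 47.5 CPM on average in shCtrl-CTRL, 54.4 in shCtrl-OGDR, 68.6 in shAnxa2-CTRL and 66.8 in shAnxa2-OGDR. Counts of Psmb8 per 100 counts of Psmb5 were 19.8 ± 1.3, 20.2 ± 0.8, 20.2 ± 2.12 and 21.2 ± 1.96 (SD, n = 3), which differ by less than the largest of these SDs. Psmb10 per 100 counts of Psmb7 went from 36.5 ± 3.42 to 28.4 ± 1.46 with OGD/R in shCtrl and from 31.6 ± 1.77 to 40.8 ± 0.883 in shAnxa2. Psmb9, the counterpart of Psmb6, ranged over 2.24 to 3.3 counts per 100 of Psmb6 in every library.

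Of the remaining subunits of the 26S proteasome that carry other symbols, Adrm1, a ubiquitin receptor of the base, had a difference of the same sign as most 19S genes, with mean levels of 126.3 CPM in shCtrl-CTRL, 78.8 in shCtrl-OGDR, 104.8 in shAnxa2-CTRL and 163.5 in shAnxa2-OGDR and a difference between the lines of 1.32 ± 0.087. Sem1, the smallest lid subunit, had 94.1, 110.2, 107.4 and 92.5 CPM and a difference of −0.44 ± 0.081. For such lists the background is the 34.9% of all genes tested with a positive and the 35.1% with a negative difference that was called. All 5 chaperones of core assembly tested, Psmg1 to Psmg4 and Pomp, had a positive difference between the lines that was called, highest for Psmg3 at 1.12 ± 0.11 (Paaf1, a chaperone of the base on that list, was not among the genes tested). Of the activators, which open the core in place of the 19S particle, Psme1, Psme2 and Psme4 had negative differences, −0.85 ± 0.11 for Psme2, and Psme3 a positive one, 0.86 ± 0.088. Of 10 ubiquitin shuttles and proteasome-bound enzymes 7 were positive, and Zfand5 was negative at −1.03 ± 0.071. Nfe2l1, the transcription factor known to induce proteasome genes when the proteasome is inhibited, had 327.9, 489.2, 398.6 and 321.8 CPM in the 4 groups and a difference of −0.89 ± 0.074, opposite in sign to most 19S genes. Of the 10 genes on its list 5 were positive, among them Syvn1 at 1.01 ± 0.15 and the protease Ddi2 at 0.72 ± 0.075, and 2 were negative, so the share called in either direction was that of all genes tested, 70.0%.

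Some members share sequence with other genes. In the GENCODE annotation, 10 of the 37 have near copies of at least 95% identity over 200 bases or more in transcripts of other genes, 19 copies in all, of which 17 are pseudogenes. Psma3, with an identical stretch of 685 bases in the pseudogene Gm13835, is one of them. Others are Psmb5 (98.87% identity over 796 bases), Psma5 (98.63% over 952) and Psmd11 (97.94% over 1501). The values of all such genes are uncertain where reads were split between copies. Exon bases of 10 are shared with overlapping genes, 9 of these on the opposite strand, up to 25.5% for Psmd9 and 21.2% for Psmc3ip. The sources used here do not say whether counting used the strand.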

How the data were processed

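RNA of 12 BV2 libraries was sequenced, and the authors deposited raw counts of reads per gene for 21834 protein-coding genes, which were the values used here. The table also holds 12 per-sample columns of the same counts normalized by the authors, and these were not used. The submitters' processing notes name HISAT2 2.0.4 and the mm39 build. The counting tool for these cells is not given in the sources used here, and the study's methods for hippocampi name Tophat 2 and HTSeq. A fault in upstream counting of copies or overlapping genes would pass into these values.

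Libraries were grouped by the sample names. Counts were fitted in edgeR 4.0.16 (R 4.3.3) with TMM scaling. Genes with 0.5 CPM or more in 3 or more libraries were kept (11626), all 12 libraries shared 1 quasi-likelihood fit, and p was adjusted by the Benjamini-Hochberg method. A gene was called at an adjusted p under 0.05. Standard errors of log2 fold changes come from the F statistic (the change over the root of F). CPM values for single libraries use TMM effective library sizes, and shares of counts use all counts. Libraries held 19521877 to 27288843 counts, and the common biological coefficient of variation was 5.35%. The steps were run on simulated counts in which few genes changed, in a single group. In these data most genes tested were called in each comparison, so scaling and false calls were not checked for such a setting.

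The members and the lists of other genes were chosen with earlier results of these data known. Every member could be named, values per library were given for the catalytic subunits and for the 3 called members with the highest and the 3 with the lowest log2 fold change of each comparison, and other genes were named if called and among the 4 with the largest change on their list. The alternatives were RLE and total-count scaling, no filter or a filter at 1 CPM, DESeq2 1.42.0, voom of limma 3.58.1, fits of only the groups compared, the replicate number as a block, fold limits of 1.2 and 0.8 or of 1.5, and leaving out each library. Transcript lengths, overlaps and near copies (BLAST 2.17.0) come from GENCODE vM21 on GRCm38, and promoters from RefSeq on GRCm38.p6. Lengths were found for 11593 of the 11626 genes. Tables were made with pandas 2.3.3 and plots with matplotlib 3.10.9. Results of some genes on the other lists are not reported here.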

Additional observations from a re-analysis of the deposited data

Results flagged for a closer look

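For 19 proteasome genes, the changes with OGD/R were called in both lines with opposite signs, and the interaction was called too. The interaction is the difference of these same changes, so its call in genes picked this way is not separate evidence. The 3 lowest differences on the log2 scale, shAnxa2 less shCtrl, were those of Psmd10 (−1.31), Psmd8 (−0.88) and Psmb6 (−0.47), and the 3 highest those of Psmc3ip (1.09), Psmd6 (0.97) and Psmc2 (0.91). In the shCtrl line Psmd10, Psmd8 and Psmb6 rose after OGD/R and in the shAnxa2 line they fell, and Psmc3ip, Psmd6 and Psmc2 did the reverse. Over all genes tested, the signs were opposite for 5165 of the 5240 called in both lines (98.57%), and the interaction was called for 70.0%. The opposite signs were thus not particular to the proteasome, and what they mean depends on the treatment labels. Libraries of the same group were compared in pairs by a chi-square of their counts, averaged over genes. It was 7.14 to 12.9 for pairs of shAnxa2-OGDR libraries and 3.96 to 7.06 for pairs in the other groups. The cause of the larger spread in shAnxa2-OGDR was not tested, and no library was left out of the main fit.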

How the results depend on the processing

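None of the 119 calls of a proteasome gene in a comparison changed sign under any alternative run, and 25 of them were lost under at least 1, each of these when some library was left out and 7 also under another alternative. Of the 56 results that were not called, 17 changed sign under an alternative. The counts of genes called among all 35 stayed within 1.5 times under the other scalings, filters, tests and sample sets, but the small counts within the core did not, and neither did some counts of 1 or 2 within the 19S particle. The core counts moved from 3 to 6 positive for the interaction and from 3 to 5 higher for OGD/R in shAnxa2 without shAnxa2-CTRL replicate 3, and from 2 to 1 higher for OGD/R in shCtrl without shCtrl-CTRL replicate 2. The counts among all 35 genes were smaller under the fold limits, except the 19 positive for the interaction at a fold of 1.2. With a fold over 1.2 or under 0.8 and an unadjusted p under 0.05, the genes higher and lower were 3 and 11 for OGD/R in shCtrl, 8 and 2 for OGD/R in shAnxa2, 6 and 2 for the knockdown without OGD/R, 18 and 1 for the knockdown after OGD/R, and 19 and 4 for the interaction. With a fold over 1.5 they were 1 and 1, 0 and 0, 1 and 0, 6 and 1, and 10 and 2 in the same order. Without a filter on low counts, OGD/R in shAnxa2 had 15 higher and 6 lower in place of 18 and 4. Where the fold limit of 1.5 left none in shAnxa2, edgeR without a fold limit called 22 at an adjusted p and 23 at an unadjusted p under 0.05, and DESeq2 called 21. Leaving out each library in turn gave 3 to 5 higher and 16 to 20 lower for OGD/R in shCtrl, 14 to 18 and 3 to 5 for OGD/R in shAnxa2, 11 to 13 and 6 to 9 for the knockdown without OGD/R, 22 to 27 and 2 to 3 for the knockdown after OGD/R, and 18 to 22 and 5 to 6 for the interaction. The share of counts in shAnxa2-OGDR was 0.7996% of the TMM effective library size in place of 0.789% of all counts.

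The libraries of the same number mostly did not deviate together: over all genes, 18 pairs of the same number had correlations of −0.0453 to 0.116, with 1 over 0.1. The 36 pairs of different numbers had −0.0961 to 0.0889. The pair over 0.1, replicate 3 of shAnxa2-CTRL and of shAnxa2-OGDR, lay above all of these. With the replicate number as a block, the genes called were 24 in place of 22 for OGD/R in shCtrl, 21 in place of 22 for OGD/R in shAnxa2, 21 and 21 for the knockdown without OGD/R, 30 in place of 29 after OGD/R, and 25 and 25 for the interaction. The block ended 2 calls, those of Psmc3 and Psmd9 for OGD/R in shAnxa2. With 1 line per shRNA, the knockdown and the line cannot be told apart.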
